A study of Mus musculus with 15 samples.

Results

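The comparison set small-intestinal epithelium taken after 4 days of RANKL against epithelium taken after 1 day, with all measured genes included. It used 6 of the 15 arrays of the series, 3 titled for 4 days and 3 titled for 1 day. All animals were wild-type BALB/c mice 10 weeks old, and both groups received a GST-RANKL fusion protein by repeated intraperitoneal injection, so the contrast is one between durations of the same agent. RANKL day 4 mice had also received more injections, which cannot be told apart from the longer exposure. Treatment with 30 mM EDTA for 10 min let the epithelium be peeled off, and its RNA was hybridised to Affymetrix arrays. The 3 untreated controls and the 6 arrays of days 2 and 3 helped to estimate the spread of each gene but took no part in the difference. Whether each array stands for a mouse of its own is not stated, so p-values here reflect only the spread between samples, which may be technical.

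RANKL is a cytokine of the TNF family whose receptor, RANK, signals through TRAF adaptors to the NF-kB transcription factors. In the small intestine it is known for turning epithelial cells into M cells, which carry particles from the lumen to lymphoid tissue. Early steps of that fate depend on noncanonical NF-kB (the p52 and RelB proteins) and on the Ets factor Spi-B, and the uptake receptor GP2 marks mature M cells. The rest of the epithelium is made of absorptive enterocytes, which carry the drug- and lipid-handling enzymes, and of secretory lineages such as goblet, Paneth, enteroendocrine and tuft cells. The comparison of the last with the first day asks which genes of the early response had receded and which had appeared or come back.

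The early genes Nfkb2, Spib and Cxcl10 were lower on day 4 and the mature M cell marker Gp2 was higher. Promoters of these 4 genes are shown as examples. They come from RefSeq, build GRCm38.p6, and each spans 250 bases before to 50 after a transcript start, 300 bases read 5′ to 3′ on the gene's own strand. Capitals mark matches to the kB consensus, the sequence recognised by NF-kB dimers, on either strand, and overlapping matches run together. The windows are chr19:46304487-46304786 (+ strand) for Nfkb2, the first of its 3 promoters in the table, with 3 matches, chr7:44532022-44532321 (- strand) for Spib with 2 matches, chr5:92348840-92349139 (- strand) for Cxcl10 with 3 matches, and chr7:119459223-119459522 (- strand) for Gp2 with none.
Nfkb2: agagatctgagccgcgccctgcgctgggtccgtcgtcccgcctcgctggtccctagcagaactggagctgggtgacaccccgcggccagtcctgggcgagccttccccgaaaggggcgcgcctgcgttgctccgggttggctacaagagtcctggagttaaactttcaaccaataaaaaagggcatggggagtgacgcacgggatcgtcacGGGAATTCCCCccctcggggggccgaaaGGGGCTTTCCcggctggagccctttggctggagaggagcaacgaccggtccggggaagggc
Spib: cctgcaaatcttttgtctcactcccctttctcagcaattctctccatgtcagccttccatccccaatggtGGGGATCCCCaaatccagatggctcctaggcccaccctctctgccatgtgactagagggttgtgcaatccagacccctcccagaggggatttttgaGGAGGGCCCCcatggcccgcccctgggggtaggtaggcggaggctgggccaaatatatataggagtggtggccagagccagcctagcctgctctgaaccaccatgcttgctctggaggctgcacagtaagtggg
Cxcl10: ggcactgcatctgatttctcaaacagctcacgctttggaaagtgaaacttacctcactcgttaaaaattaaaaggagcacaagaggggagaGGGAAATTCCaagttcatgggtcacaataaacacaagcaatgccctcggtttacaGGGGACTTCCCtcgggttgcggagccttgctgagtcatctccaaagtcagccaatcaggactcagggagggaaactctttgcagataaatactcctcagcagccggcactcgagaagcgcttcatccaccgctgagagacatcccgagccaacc
Gp2: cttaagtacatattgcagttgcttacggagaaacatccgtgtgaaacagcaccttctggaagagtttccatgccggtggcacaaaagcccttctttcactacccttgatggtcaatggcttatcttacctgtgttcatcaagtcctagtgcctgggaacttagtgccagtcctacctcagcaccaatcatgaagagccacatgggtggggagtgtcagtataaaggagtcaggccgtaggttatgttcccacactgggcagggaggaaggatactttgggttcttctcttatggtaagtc
Among all genes tested with a promoter in the table, 1713 of 15614 (11%) held at least 1 match in any of their promoters. The share was 8 of 41 (19.5%) for genes lower on day 4 and 15 of 173 (8.67%) for genes higher on day 4. Besides Nfkb2, Spib and Cxcl10, the 8 included Mal and Pglyrp1, which are described further on. Icam1 and Relb, which also fell, are not among the 8. Only 41 of the 55 lower genes had a promoter to search, and whether these 2 genes did is not shown here. The 3 lower genes shown thus all hold a match, whereas most of the 41 do not, and the 4 windows do not stand for the called genes. A match is a string of letters, not a shown binding site, and a window with none says only that these letters are not in it.

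By day 4 many more genes stood above their day 1 level than below it. Of 19938 genes, 263 (1.32%) were called by limma at an adjusted p under 0.05, 208 (1.04%) higher on day 4 and 55 (0.276%) lower. The change was 1 or more on the log2 scale for 40 of them (32 higher, 8 lower), and the median absolute change of the called genes was 0.61. All 263 had day 4 arrays that did not overlap the day 1 arrays, which held for 3894 of all genes (19.5%; 2557 or 12.8% above and 1337 or 6.71% below), and 3147 genes had an unadjusted p under 0.05. The median change over all genes was 0.02, and 55.6% of them had a higher mean on day 4. Higher genes made up 79.1% of the calls after quantile normalization, 87.6% with the values as deposited (304 higher, 43 lower), 95.4% with median centring (557 higher, 27 lower) and 62.9% with array weights (873 higher, 516 lower). Median centring thus gave fewer falls and more rises, and array weights gave more of both. The weights were 4.267 for day 1 replicate 3 and 0.327 and 0.185 for day 1 replicates 1 and 2. The weighted day 1 level therefore rested largely on 1 array.

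**Figure D1:**
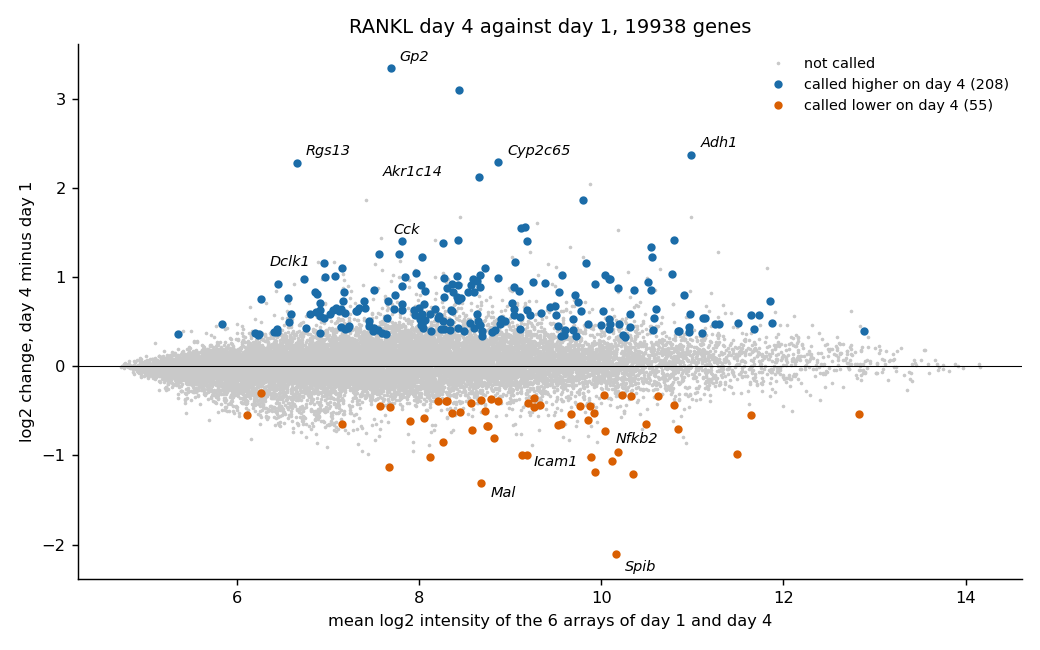
Log2 change from day 1 to day 4 (vertical axis) against the mean log2 intensity of the 6 arrays (horizontal axis), 1 point per gene. Blue points are the 208 genes called higher and orange points the 55 called lower, grey points were not called, and the largest rise belongs to Gp2 and the largest fall to Spib.

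The day 1 arrays differed among themselves before any gene was tested. RANKL day 1 replicate 2 had a log2 interquartile range of 1.95 as deposited, against 2.26 to 2.55 on the other arrays, and lay at -38.47 on the first principal component of the 6 arrays, against -2.01 and 0.58 for the other day 1 arrays and 12.14 to 14.84 for those of day 4. On the second component (28.7% of the variance) day 1 replicate 1 lay at 30.55, against -10.7 to 2.69 for the rest. These 2 arrays also deviated most from their group mean. The root mean square was 0.2209 for replicate 2 and 0.1891 for replicate 1, against at most 0.1552 on any other array. Without day 1 replicate 2, 170 genes were called (121 higher, 49 lower), and 138 of these were among the 263. The count was 143 without day 1 replicate 1, 507 without day 1 replicate 3, 58 without day 4 replicate 1 and 168 without day 4 replicate 2. Only 56 genes (42 higher, 14 lower) stayed called without each of the 15 arrays in turn, and they are called the stable genes here. When the 6 arrays were fitted alone, with 4 residual degrees of freedom, 4 genes were called, all higher, and 2300 had an unadjusted p under 0.05. The 4 were Rgs13 (adjusted p = 0.00669), Adh1 (0.00803), Adh4 (0.0159) and Dclk1 (0.0406), and Adh4, an alcohol dehydrogenase gene, is named here after its value was seen.

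Epithelial identity genes were high in both groups and none was called. Epcam, an epithelial adhesion molecule, averaged 11.80 on day 1 and 11.78 on day 4 on the log2 scale, and Vil1 (0.14), Krt8 (0.01) and Cdh1 (-0.10), for villin, keratin 8 and E-cadherin, differed by the log2 values given. In whole epithelium a lower value can mean fewer cells of a type or less RNA per cell, and the arrays cannot tell these apart.

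Part of the RANK and NF-kB pathway had fallen by day 4. Of 25 measured genes 5 fell and none rose (20% called, against 1.32% of all genes), with a median change of -0.22 against 0.02 over all genes, and 14 of the 25 had every day 4 array below every day 1 array, as did 6.71% of all genes. The list stood at a median of 0.41 above control on day 1 and 0.19 above it on day 4. Without day 1 replicate 2, 4 members fell, and without day 4 replicate 1, 2 did. With median centring only 1 member fell and the median was -0.08.

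Nfkb2 encodes p100, the precursor of p52. It read 10.46, 10.32 and 10.42 on the day 1 arrays and 9.54, 9.71 and 9.78 on the day 4 arrays, with controls at 8.59 to 8.89. Every day 4 array was thus below every day 1 array and above every control. It fell by 0.72 ± 0.08 (SE, n = 3 arrays per group; adjusted p = 0.00138) and was stable, but with median centring its change of -0.47 was not called (adjusted p = 0.0582). Relb, the binding partner of p52, read 9.39, 9.43 and 9.38 on day 1 and 9.03, 8.89 and 9.04 on day 4, where it overlapped the controls (8.88 to 9.08). The fall of 0.42 ± 0.07 (adjusted p = 0.0139) was lost without day 4 replicate 1 (0.0589) or replicate 2 (0.0557), on the deposited scale, and under median centring (-0.18, adjusted p = 0.354).

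Icam1, the endothelial and epithelial ligand of leukocyte integrins, had the smallest adjusted p of the list. Its log2 intensity was 9.51, 9.80 and 9.59 on day 1 and 8.62, 8.79 and 8.49 on day 4, against 7.72 to 7.88 in controls. The groups did not overlap, and the fall of 1.00 ± 0.09 (2.00-fold; adjusted p = 0.000354) was stable and held with median centring (-0.78, adjusted p = 0.00401). Tnfrsf11b, which encodes osteoprotegerin, the soluble decoy receptor of RANKL, fell by 0.84 ± 0.18 (adjusted p = 0.0337), but the call was lost without 7 of the 15 arrays (adjusted p up to 0.169, without day 4 replicate 1), namely day 1 replicate 1, day 2 replicates 1 and 2, each day 4 array and control replicate 3. It was lost as well on the deposited scale (0.0541), and under median centring (0.0875). The adaptor gene Traf2, the other called member, fell by 0.37 ± 0.08 (adjusted p = 0.0447) and is named to complete the count. The receptor gene Tnfrsf11a itself was not called. Its day 1 arrays read 10.20 to 10.43 and its day 4 arrays 9.91 to 10.13, a change of -0.33 ± 0.11 (adjusted p = 0.162), and the inhibitor gene Nfkbia changed by -0.32 ± 0.13 (adjusted p = 0.278). In both the arrays of the 2 days did not overlap.

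M cell markers moved in both directions, with Spib among the falls and Gp2 among the rises. Of 33 measured markers 5 fell and 2 rose (21.2% called), with a median change of -0.31, from a median of 0.89 above control on day 1 to 0.60 above it on day 4. The counts were the same without day 1 replicate 2, whereas 2 fell and 2 rose without day 4 replicate 1, and 3 fell and 2 rose with median centring. Part of this list was first described in epithelium given RANKL, perhaps in these very samples, and it is no independent evidence of a direction.

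Spib showed the largest fall of all genes tested. The day 1 arrays read 11.58, 10.98 and 11.09 and the day 4 arrays 8.96, 9.58 and 8.77, and the controls lay at 6.50 to 6.81. No day 4 array reached a day 1 array, and none came down to the controls. The fall was 2.11 ± 0.20 (4.32-fold; adjusted p = 0.000354), stable, and -1.89 with median centring. Its means on days 2 and 3 were 11.32 and 10.39, so the mean came down after day 2.

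Gp2 went the other way. It read 5.80, 6.02 and 6.25 on day 1, which overlapped the controls (5.94 to 6.22), and 8.97, 10.17 and 8.95 on day 4. The rise was 3.34 ± 0.34 (10.1-fold; adjusted p = 0.000631), the largest of all genes, and stable. Its mean was higher still on day 3, at 10.99 against 9.36 on day 4. Background was judged roughly, by Y chromosome genes, as Xist read 11.93 or more on all arrays. Of 8 such genes the 6 picked for staying under 6 on every array read 4.88 to 5.50. The others, Uba1y and Sry, read 5.82 to 6.32 and 7.85 to 8.79. The day 1 values of Gp2 lay near the lower of these levels, so the fold may be understated.

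Another 4 M cell markers fell. Marcksl1, an actin-regulating substrate of protein kinase C, fell by 0.96 ± 0.17 (adjusted p = 0.0139), from 10.55, 10.76 and 10.67 to 9.25, 10.14 and 9.72, and was stable. Clu, the extracellular chaperone clusterin, fell by 0.81 ± 0.15, the transmembrane chemokine Cxcl16 by 0.60 ± 0.11 and the peptidoglycan-binding protein Pglyrp1 by 0.54 ± 0.09 (adjusted p = 0.0177, 0.0144 and 0.0139). These calls were lost without day 4 replicate 1 (0.114, 0.072 and 0.0642), and that of Clu also without day 1 replicate 2 (0.0553) or day 4 replicate 3 (0.059). Clu and Cxcl16 were also lost on the deposited scale (0.0511 and 0.0907), and under median centring (0.0784 and 0.17). The chemokine gene Ccl6 was the second marker that rose, by 0.48 ± 0.09 (adjusted p = 0.0148, lost without day 4 replicate 2, 0.0616).

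Several M cell genes that stood high on day 1 were not called. H2-M2, a nonclassical MHC class I gene, read 11.28, 11.70 and 11.08 on day 1 and 10.56, 10.88 and 10.05 on day 4, far above its controls (6.31 to 7.03) on both days. The groups did not overlap, but the change of -0.86 ± 0.27 had an adjusted p of 0.145. Ccl20, the ligand of CCR6, changed by -0.67 ± 0.20 (adjusted p = 0.14), and was called lower without day 1 replicate 2 (-0.93, adjusted p = 0.0262). Tnfaip2 (-0.31) and Ccl9 (-0.30) had overlapping arrays and adjusted p-values of 0.513 and 0.42. The lipocalin gene Lcn2, which is not on the list, also had overlapping arrays and changed by -0.20 (adjusted p = 0.824).

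The other stable falls lay outside those lists, and each of these genes averaged above control on day 1. Mal, a raft protein of apical transport, read 9.14, 9.24 and 9.64 on day 1 and 7.82, 7.89 and 8.37 on day 4, where it overlapped the controls (7.63 to 8.03), a fall of 1.31 ± 0.19. Treml4, a receptor gene of the TREM family, fell by 1.13 ± 0.14, from 8.16, 8.03 and 8.51 to 7.14, 7.15 and 7.02, also within its controls (6.88 to 7.27). Both genes had thus come back to levels that overlapped untreated epithelium. Adgrd1, an adhesion G protein-coupled receptor, fell by 0.98 ± 0.14 and stayed above control (10.68 to 11.31 against 9.33 to 9.67).

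Smaller stable falls were those of the growth factor gene Bmp6 (-0.71), the alpha tubulin gene Tuba4a (-0.70), the succinate dehydrogenase assembly factor gene Sdhaf1 (-0.67), the membrane skeleton gene Epb41l2 (-0.65), Bsdc1 (-0.65), Zswim4 (-0.51) and the TNF receptor family member Relt (-0.44), all with adjusted p-values of 0.0127 or less. With median centring Sdhaf1 (adjusted p = 0.0976), Epb41l2 (0.155) and Zswim4 (0.108) were not called, and Epb41l2 was not called on the deposited scale either (0.0768). Cd44, the hyaluronan receptor, read 10.84, 10.47 and 10.61 on day 1 and 9.50, 9.67 and 9.59 on day 4. It fell by 1.06 ± 0.17 (adjusted p = 0.00914, lost without day 4 replicate 1, 0.0588) and was the 1 of 24 stem cell genes that did so. The interferon-induced chemokine Cxcl10 fell by 1.02 ± 0.19 (adjusted p = 0.0159), and its day 4 arrays (7.76, 7.58 and 7.48) lay within the controls (7.43 to 7.96). That call ended without day 1 replicate 1 (0.0591) or any single day 4 array (0.053 to 0.0588). No other of 34 interferon-stimulated genes was called, and the median of that list was 0.21. This median rested on day 4 replicate 2, where the mean level of the list was 8.96 against 8.02 and 7.90 on the other day 4 arrays, and it was -0.085 without that array and 0.406 without day 4 replicate 3.

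**Figure D2:**
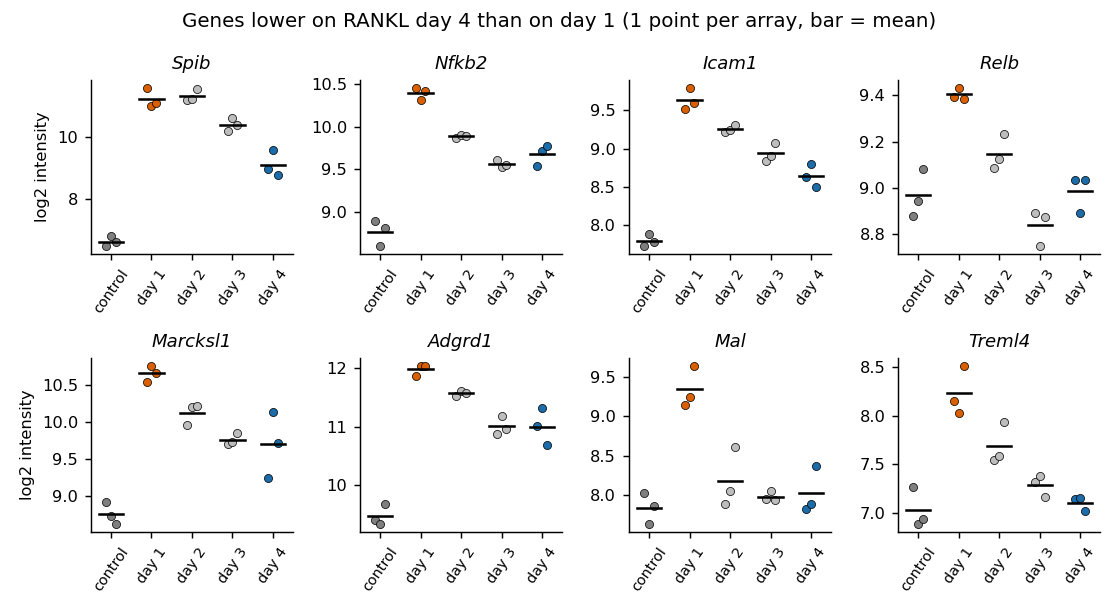
Log2 intensity (vertical axis) of 8 genes lower on day 4, with 1 point per array, a bar at the mean of 3 arrays, and the 5 groups on the horizontal axis (orange, day 1; blue, day 4). In each panel the day 4 points lie below the day 1 points, while Mal, Treml4 and Relb overlap the controls on day 4 and Spib, Icam1 and Nfkb2 stay above them.

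Part of the tuft cell genes rose from day 1 to day 4. Tuft cells are chemosensory cells that signal through a taste-like cascade of a G protein, phospholipase C and the cation channel TRPM5. Of 26 measured markers 8 rose and none fell (30.8% called), with a median of 0.28, and 24 had a higher mean on day 4, against 55.6% of all genes. The median of the list was 0.04 above control on day 1 and 0.35 above it on day 4. Without day 1 replicate 2, and likewise without day 4 replicate 1, 5 rose, and 8 rose with median centring.

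Rgs13, a regulator of G protein signalling, had the smallest adjusted p of the named genes. It read 5.72, 5.39 and 5.44 on day 1, and 7.67, 7.74 and 8.0 on day 4. The day 1 values lay within or just above the 4.88 to 5.50 of the 6 low Y chromosome genes. The rise of 2.29 ± 0.16 (4.87-fold; adjusted p = 3.3e-05) may therefore be understated. Dclk1, a microtubule-associated kinase, read 6.67, 6.49 and 6.67 on day 1, 7.60, 7.69 and 7.84 on day 4 and 6.64 to 6.73 in controls, a rise of 1.10 ± 0.09 (adjusted p = 0.000179). Day 1 was thus level with control, and its means on days 2 and 3 were 6.67 and 7.25.

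Further along the cascade, Trpm5 rose by 1.04 ± 0.18 (adjusted p = 0.0139), from 7.05, 7.72 and 7.56 to 8.25, 8.55 and 8.65, and already averaged 8.12 on day 2. The actin-bundling protein gene Avil rose by 0.66 ± 0.09 (adjusted p = 0.00382). These 4 genes were stable. The other called markers are named to complete the list. The phospholipase gene Plcb2 (0.65) was stable too. The leukotriene genes Alox5ap (0.56) and Alox5 (0.42) and the G protein gene Gnat3 (0.36) were not. Alox5 and Alox5ap are also expressed by leukocytes. Sh2d7, which encodes an SH2-domain protein and is not on the list, rose by 0.98 ± 0.15 and was stable.

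Some enteroendocrine genes rose as well. These cells release peptide hormones from dense-core granules, and 6 of 26 genes for hormones and granule proteins rose and none fell (23.1% called; median 0.35), with 16 of the 26 having every day 4 array above every day 1 array, against 12.8% of all genes. The list median was 0.07 below control on day 1, at -0.07, and 0.33 above it on day 4. Without day 1 replicate 2 the count was 5, it was 4 without day 4 replicate 1, and with median centring it was 11.

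Cck, the hormone of gallbladder contraction and satiety, read 7.67, 7.33 and 7.73 on day 1 and 9.14, 9.04 and 8.67 on day 4. The day 1 arrays lay among the controls (7.51 to 7.84) or below them, and the rise was 1.38 ± 0.14 (2.60-fold; adjusted p = 0.00043). Gcg, which encodes proglucagon, the source of GLP-1, rose by 1.42 ± 0.18 (adjusted p = 0.0025), from 10.30, 9.68 and 10.29 to 11.42, 11.51 and 11.61. It had the controls in between, at 10.32 to 10.67. Ghrl, the ghrelin gene, rose by 1.10 ± 0.20 (adjusted p = 0.0147), from 8.14 to 8.22 on day 1 to 9.01 to 9.59 on day 4, and the call ended without day 1 replicate 1 (0.0503) or day 4 replicate 1 (0.0884).

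The prohormone-processing enzyme gene Cpe rose by 0.82 ± 0.10 and the calcium sensor gene Scgn, not on the list, by 0.92 ± 0.12 (adjusted p = 0.00188 and 0.00208). Both were stable. The granule protein genes Chgb (0.55), also stable, and Scg3 (0.47), not stable, complete the called members. Of 18 transcription factor genes of the lineage 3 rose, Neurod1 (0.73 ± 0.14), Rfx6 (0.71 ± 0.13) and Etv1 (0.59 ± 0.12), with adjusted p-values of 0.0242, 0.0145 and 0.0289. None of the 3 was called without day 1 replicate 2 (0.0723, 0.052 and 0.0948), day 4 replicate 1 (0.105, 0.0804 and 0.163) or day 4 replicate 2 (0.0936, 0.0568 and 0.0557). Neurod1 was also lost without day 1 replicate 1 (0.0588) and Etv1 without day 4 replicate 3 (0.0669).

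**Figure D3:**
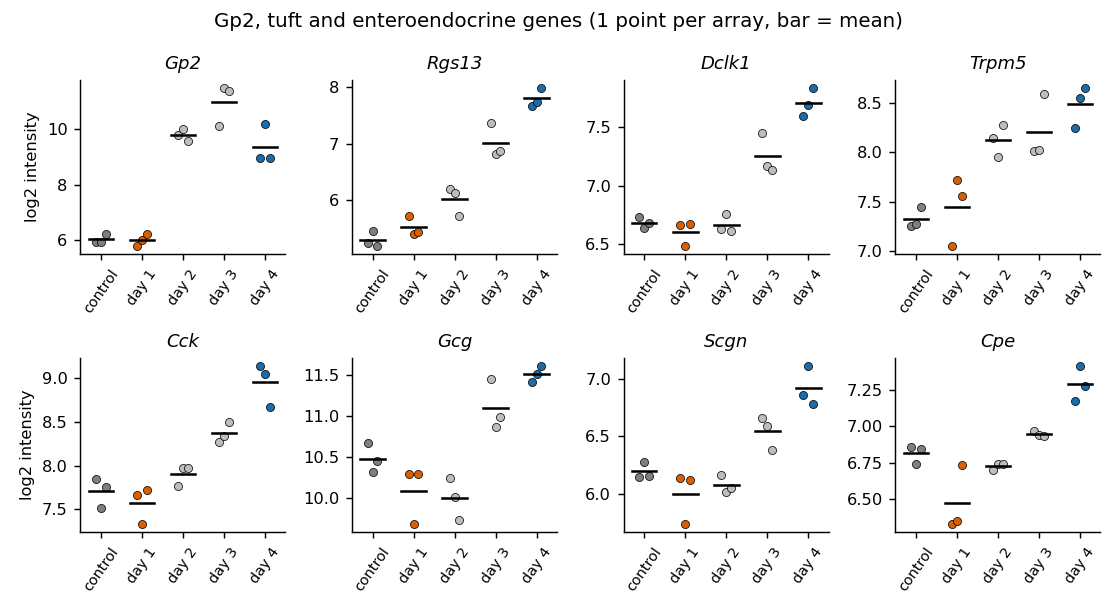
Log2 intensity (vertical axis) of Gp2 and of tuft and enteroendocrine genes, with 1 point per array and a bar at the mean of 3 arrays, for the 5 groups on the horizontal axis (orange, day 1; blue, day 4). All 3 day 4 arrays of each gene lie above all 3 day 1 arrays, and Gp2 peaks on day 3.

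Goblet cells secrete mucus, and 4 of 24 goblet cell genes rose and none fell (16.7% called; median 0.27). Creb3l4, a membrane-bound transcription factor gene of secretory cells, rose by 0.77 ± 0.10 (adjusted p = 0.00325; stable), from 7.83, 7.76 and 8.07 to 8.62, 8.61 and 8.75, with the controls at 8.11 to 8.15 between them. Sytl2, a Rab-binding protein gene of granule exocytosis, rose by 0.58 ± 0.11 (adjusted p = 0.0246), and Rep15, a Rab15 effector gene, by 0.63 ± 0.14 (0.0458), and Ccl6 is on this list too. Sytl2 lost its call without any single day 4 array, day 1 replicate 1 or day 1 replicate 2 (0.0591 to 0.105), and Rep15 without 12 of the 15 arrays (adjusted p up to 0.14), all but control replicate 1, day 1 replicate 3 and day 2 replicate 3. Without day 1 replicate 2 the list had 2 calls, as it had without day 4 replicate 1, and with median centring it had 8. None of 13 Paneth cell genes was called (median 0.01). An unadjusted p under 0.05 was found for 1 of them, against 3147 of all 19938 genes. The lectin-like gene Mptx1 changed by 0.97 ± 0.23 (adjusted p = 0.0622) and the ribonuclease gene Ang4 by 0.19 ± 0.31 (0.796).

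Enzymes that oxidise and conjugate drugs, retinoids and steroids made up many of the largest rises. Of 43 phase II enzymes and related genes 9 rose and none fell (20.9% called; median 0.38), and 24 had every day 4 array above every day 1 array, against 12.8% of all genes. Of 30 cytochrome P450 genes 5 rose and none fell (16.7%; median 0.36). Both lists stood below control on day 1, with medians of -0.16 and -0.23, and at 0.21 and 0.04 above it on day 4. Without day 1 replicate 2, 6 phase II genes and 3 P450 genes rose, and without day 4 replicate 1, 2 and 1 rose. With median centring 17 and 11 rose. Several of these families hold near-identical copies, and whether probes read more than 1 copy was not tested.

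Adh1, an alcohol dehydrogenase that also oxidises retinol, showed the largest rise after Gp2 among the genes chosen by the naming rule. It read 9.73, 10.06 and 9.62 on day 1 and 12.38, 11.99 and 12.16 on day 4, above its widely spread controls (9.30, 10.56 and 10.89). The rise was 2.37 ± 0.42 (5.18-fold; adjusted p = 0.0144), lost without day 1 replicate 1 (0.0517) or day 4 replicate 1 (0.084). Aldh1a1, which makes retinoic acid from retinal, rose by 1.86 ± 0.31 (adjusted p = 0.0116), from 8.96, 8.22 and 9.41 to 10.82, 10.36 and 11.01, a call lost without day 4 replicate 1 (0.0642). Its controls, at 9.99 to 10.63, lay above day 1 and overlapped day 4.

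In all 4 of 27 retinoid genes rose and none fell (14.8%; median 0.08), Adh1, Aldh1a1 and 2 more. Retsat, retinol saturase, rose by 1.16 ± 0.21 (adjusted p = 0.0161) and was lost without day 1 replicate 1 or 2 (0.0627 and 0.0602) or day 4 replicate 1 or 2 (0.104 and 0.0518). Lrat, which esterifies retinol, rose by 0.99 ± 0.22 (adjusted p = 0.0472) and was lost without 12 of the 15 arrays (adjusted p up to 0.213), all but day 2 replicate 3, day 3 replicate 1 and day 4 replicate 3. Without day 4 replicate 1 no gene of this list was called.

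Cyp2c65, a cytochrome P450 gene, read 7.53, 7.40 and 8.24 on day 1 and 10.66, 9.64 and 9.74 on day 4, with its controls at 9.34 to 10.76. Day 4 thus overlapped control and day 1 did not, and the rise was 2.29 ± 0.40 (4.89-fold; adjusted p = 0.0139). It was lost without day 1 replicate 1 (0.0542), day 1 replicate 2 (0.0503) or day 4 replicate 1 (0.084). Cyp2c68 rose by 1.22 ± 0.24 (0.0252), Cyp2j6 by 0.95 ± 0.17 (0.014) and Cyp2j9 by 0.73 ± 0.13 (0.0139). All 3 were lost without day 4 replicate 1 (0.152, 0.0844 and 0.084), Cyp2c68 also without day 1 replicate 2 (0.0709) or day 4 replicate 2 (0.0637), and Cyp2j6 without day 1 replicate 1 (0.0591) or day 4 replicate 2 (0.053).

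Stable rises among conjugating and hydrolysing enzymes were those of Ugt2b36, a glucuronosyltransferase gene (1.41 ± 0.20), the carboxylesterase genes Ces1f (1.33 ± 0.20) and Ces1e (0.84 ± 0.10), and Gstk1, a mitochondrial and peroxisomal glutathione transferase gene (1.16 ± 0.17), with adjusted p-values of 0.00208 to 0.007. Ugt2b36 read 7.24, 6.82 and 7.28 on day 1, 8.84, 8.40 and 8.32 on day 4 and 8.30 to 8.58 in controls. Gstk1 read 9.02, 9.12 and 9.62 on day 1, 10.65, 10.09 and 10.49 on day 4 and 10.62 to 10.98 in controls. Their day 4 arrays overlapped the controls, and their day 1 arrays did not. Gstm6, another glutathione transferase gene, rose by 1.26 ± 0.20 (adjusted p = 0.0104, lost without day 4 replicate 1, 0.0625).

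Akr1c14, a 3-alpha-hydroxysteroid dehydrogenase gene, rose by 2.12 ± 0.35 (4.34-fold; adjusted p = 0.0111), from 7.95, 6.78 and 8.06 to 10.38, 9.24 and 9.53, against 9.13 to 9.71 in controls. It and Hsd17b13 (0.61 ± 0.10; adjusted p = 0.0111), a lipid droplet dehydrogenase gene, were the 2 of 21 steroid dehydrogenase and aldo-keto reductase genes that rose, none fell, and the median was 0.37. Both calls ended without day 4 replicate 1 (0.0599 and 0.0693).

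**Figure D4:**
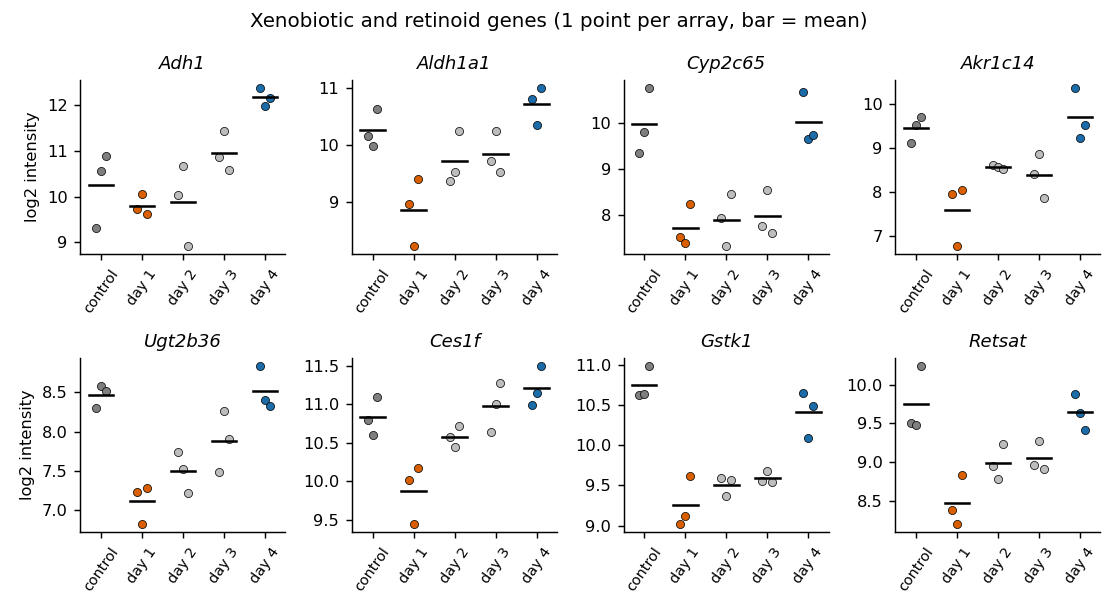
Log2 intensity (vertical axis) of 8 genes of xenobiotic, retinoid and steroid metabolism, with 1 point per array and a bar at the mean of 3 arrays, for the 5 groups on the horizontal axis (orange, day 1; blue, day 4). For each gene all day 4 arrays lie above all day 1 arrays, and for each but Adh1 the day 4 arrays overlap the controls.

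Further stable rises, chosen by the size of the change, were in genes outside the lists described above. Otc, the urea cycle enzyme of citrulline synthesis, read 9.71, 9.27 and 9.63 on day 1, 10.76, 10.50 and 10.42 on day 4 and 10.60 to 10.82 in controls, a rise of 1.02 ± 0.12 (adjusted p = 0.00201). Pipox, a sarcosine and pipecolate oxidase gene, rose by 1.00 ± 0.12 (0.00201), Acox2, which oxidises branched acyl chains of bile acid precursors, by 0.96 ± 0.14 (0.00471), Dao, D-amino acid oxidase, by 1.02 ± 0.16 (0.00747), Dglucy, D-glutamate cyclase, by 0.91 ± 0.15 (0.00942) and Cox7a1, a cytochrome c oxidase subunit gene, by 1.22 ± 0.19 (0.00676). Chpt1, the last enzyme of phosphatidylcholine synthesis from choline, rose by 0.92 ± 0.14 (0.00858). Bnip3, a mitophagy receptor gene, rose by 1.01 ± 0.17 (0.0128), whereas its second probe set changed by 0.39 and was not called (adjusted p = 0.217 in a fit of all probe sets).

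Vdr, the vitamin D receptor gene and the 1 stem cell list member that rose, read 11.58, 11.47 and 11.43 on day 1 and 12.37, 12.01 and 12.29 on day 4, a stable rise of 0.73 ± 0.09 (adjusted p = 0.0025) that ended at the level of the controls (12.26 to 12.45). In the iron list Tfrc, the transferrin receptor (0.98 ± 0.20), and Slc11a2, the apical iron importer (0.60 ± 0.11), rose with adjusted p-values of 0.0258 and 0.0165, and Bmp6 fell, so 3 of 23 genes were called (13%). Tfrc was lost without day 1 replicate 1 or 2 (0.0781 and 0.0885) or day 4 replicate 1 or 2 (0.127 and 0.0989), and Slc11a2 without day 1 replicate 1 or 2 (0.0503 and 0.0592) or any single day 4 array (0.0568 to 0.0642). Ccl28, a mucosal homing chemokine, rose by 1.56 ± 0.31 (2.94-fold; adjusted p = 0.0279), from 8.65, 7.40 and 8.99 to 9.65, 9.91 and 10.14, and was lost without any single day 4 array (0.0797 to 0.0925). Of 27 chemokine genes 2 rose (Ccl28, Ccl6), 2 fell (Cxcl10, Cxcl16), and the median was -0.01. Among RIKEN-named genes, which the naming rule left out, 1810065E05Rik had the largest rise, 3.09 ± 0.43 (adjusted p = 0.00387), from 7.41, 5.85 and 7.41 to 9.73, 9.59 and 10.64 against controls of 10.96 to 11.18, and is named after its values were seen.

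Absorptive and housekeeping programmes gave few or no calls. Neither the 20 digestive enzyme genes of the brush border (median 0.04), the 23 genes of its structure (0.13), the 30 PPAR alpha and fatty acid oxidation genes (0.27), the 30 sterol and fatty acid synthesis genes (-0.11) nor the 42 oxidative phosphorylation genes (0.17) had a member called. In the last list all 42 means were higher on day 4, against 55.6% of all genes. In 22 of the 42 every day 4 array was above every day 1 array, as in 12.8% of all genes. Cox7a1, the cytochrome c oxidase subunit gene that rose, is not on that list. With median centring 2 digestive, 1 structure, 3 PPAR alpha and 6 oxidative phosphorylation genes were called higher. In the limma test 3147 of all 19938 genes had an unadjusted p under 0.05. In these 5 lists it was 2 of 20, 5 of 23, 15 of 30, 6 of 30 and 17 of 42, in the order given. The 17 proximal (0.33) and 15 ileal (0.01) genes were not called either, and Cyp3a11, a proximal P450 gene, changed by 1.87 ± 0.45 (adjusted p = 0.0638), a rise called with median centring (0.0437). Mogat2, which rebuilds triglyceride in enterocytes, was the 1 of 28 fat uptake genes that rose (0.48 ± 0.08; adjusted p = 0.0116, lost without day 4 replicate 1, 0.0755).

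Of 49 cell cycle genes Mybl2, a transcription factor gene of proliferating cells, alone fell (-0.39 ± 0.09; adjusted p = 0.0433), and it was lost without 11 of the 15 arrays (adjusted p up to 0.174), all but control replicate 1, day 1 replicates 1 and 3 and day 2 replicate 3, and under median centring (0.0814). The medians of the cell cycle list (-0.04), the sterol list (-0.11) and the 33 cytosolic ribosomal protein genes (-0.15, none called) turned to 0.08, 0.04 and 0.05 with median centring, so their sign depends on the scaling. The first and second were -0.17 and -0.27 without day 1 replicate 2, where the third stayed at -0.15. None of 39 ribosome biogenesis genes, 34 endoplasmic reticulum stress genes, 34 immediate early genes, 19 clock genes or 25 antigen presentation genes was called. Of them 7, 12, 4, 3 and 7 had an unadjusted p under 0.05, against 3147 of all 19938 genes. Pigr, the receptor that carries IgA to the lumen, rose by 0.39 ± 0.08 (adjusted p = 0.0386), and with Pglyrp1 it made up the 2 calls among 27 antimicrobial and acute-phase genes. The call of Pigr was lost without 9 of the 15 arrays (adjusted p up to 0.153), all but control replicate 1, day 1 replicate 3, day 2 replicate 3 and the 3 day 3 arrays.

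**Figure D5:**
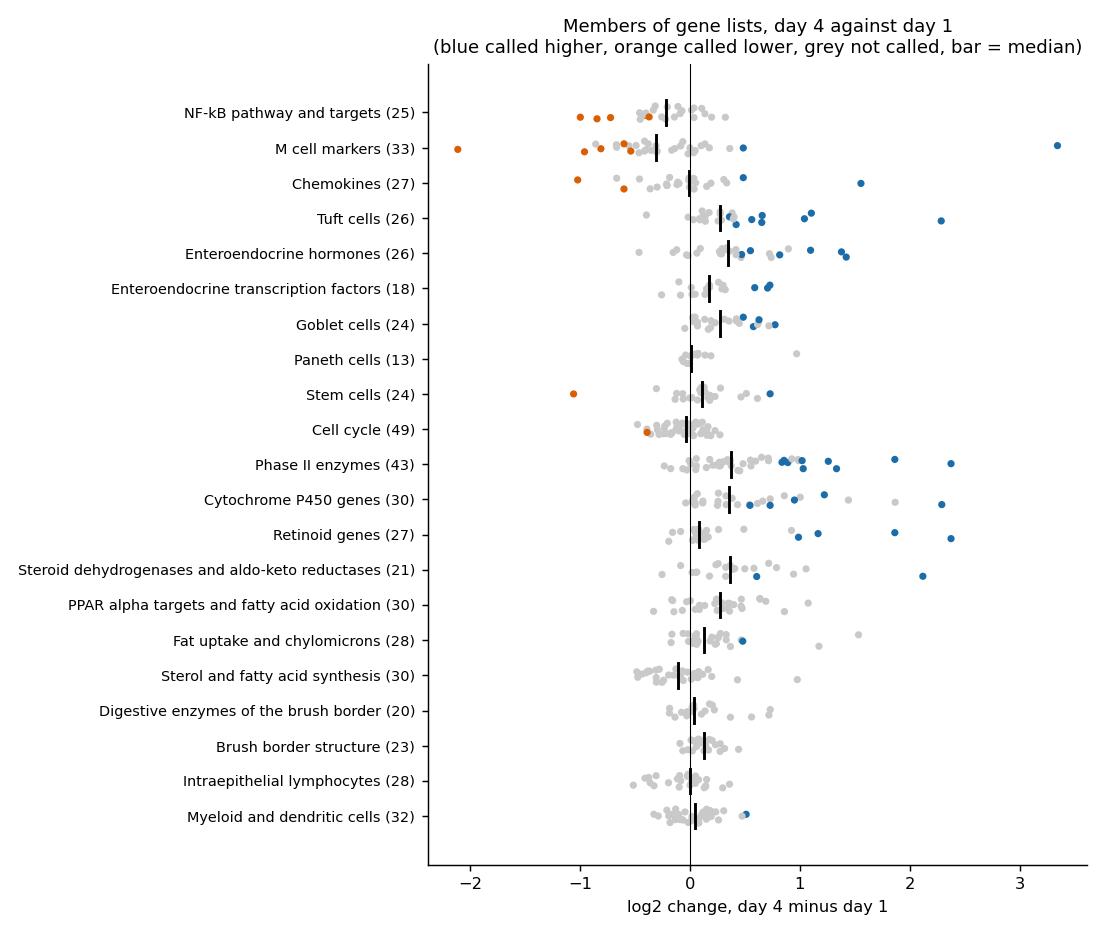
Log2 change from day 1 to day 4 (horizontal axis) of the members of 21 gene lists (rows, with the number measured), 1 point per gene, blue for called higher, orange for called lower, grey for not called, and a black bar at the list's median. The NF-kB and M cell lists have medians of -0.22 and -0.31, and the tuft, enteroendocrine hormone, phase II and P450 lists medians of 0.28 to 0.38.

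Other cell types in the peeled tissue were followed by their own markers. None of 28 intraepithelial lymphocyte genes was called (median -0.003), though their summed intensity was 10700 to 12534 on day 1 and 8977 to 11309 on day 4, and Cd3e changed by -0.51 (adjusted p = 0.168). Of 32 myeloid and dendritic genes 1, the growth factor receptor gene Csf1r, rose (0.51 ± 0.09; adjusted p = 0.0156), and it was lost without day 1 replicate 1 (0.0621) or any single day 4 array (0.0521 to 0.0588). Summed intensities on day 1 and day 4 were 5572 to 7098 and 6399 to 6786 for the myeloid list, 2765 to 3454 and 3544 to 3740 for 19 B and plasma cell genes, and 4305 to 5377 and 4875 to 7035 for 31 stromal genes. The B and plasma cell sums did not overlap between the days, although no member was called. The part of these cells in the results was not tested.

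Most of the called genes moved the same way between day 2 and day 3, on arrays that took no part in the difference. Between day 2 and day 3 the mean fell for 52 of the 55 genes lower on day 4 (94.5%, against 43.4% of all genes) and rose for 159 of the 208 higher genes (76.4%, against 56.6%). Across all 4 days the means fell at each step for 28 of the 55, against 1672 of all 19938 genes. They rose at each step for 123 of the 208, against 2104 of all genes. These steps start on day 1 and end on day 4, the days by which the genes were called, which favours such counts. Of the lower genes all 55 averaged above control on day 1, and 50 of them were not below control on day 4. Of the higher genes 135 averaged below control on day 1 and above it on day 4, another 58 averaged below control on day 1 and not above it on day 4, and 15 were at or above control on day 1. No gene was called in opposite directions against control on the 2 days. The position against control rests on the same day 1 and day 4 arrays as the calls, and is given as a description.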

How the data were processed

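Per the labels, total RNA of epithelium from 15 samples was biotinylated with the Affymetrix WT Terminal Labeling Kit. The authors deposited linear intensities of 28853 probe sets per array (25.95 to 24106.7, array medians 147 to 167), and no pair of arrays had identical values. The genome build in the submitters' processing notes is mm9. How probes were summarised, corrected for background or normalized is not stated in these sources.

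Intensities as deposited were taken to log2 (pseudocount 0) and quantile normalized, because the array medians spanned 0.184 on the log2 scale, over a limit of 0.1. Of the probe sets, 21789 carried 1 gene symbol, 1621 several and 5443 none. Each of 19938 genes was read from its brightest probe set, by the mean of the 15 arrays, which was a choice for 999 genes. limma 3.58.1 in R 4.3.3 fitted a mean per group to all 15 arrays (10 residual and 3.49 prior degrees of freedom), and the two-sided test of day 4 minus day 1 was adjusted by Benjamini-Hochberg over all genes, with calls under 0.05. All changes are log2 differences of means. The pipeline was tested on simulated data with independent noise of equal size on all arrays of a gene. Such data hold no deviating array and no replicate effect, so the test says nothing on these. With 3 arrays per group, their number limits the precision.

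The comparison and the 38 gene lists (1061 symbols, 949 matched) were chosen with earlier results of these data known. Named were up to 20 stable rises and 20 stable falls outside unnamed clones, up to 4 called members per list described (or the 2 largest changes where none was called, not all of which are described), and Gp2, Spib, Tnfaip2, Ccl9, Ccl20, H2-M2, Tnfrsf11a, Relb, Nfkb2, Nfkbia, Rgs13 and Lcn2. Alternatives covered scaling, an offset of 16, the dimmest 40% of genes, probe set choice, the prior, array weights, the replicate number as a block, ordinary t statistics, smaller fits and each array left out. Replicate numbers were not treated as pairs.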

Additional observations from a re-analysis of the deposited data

Results flagged for a closer look

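In 10 named genes the day 1 arrays all lay below all 3 controls and the day 4 arrays all lay above them, so the 2 days stood on opposite sides of control. They were Gcg (log2 change from day 1 to day 4 of 1.42), Gstm6 (1.26), Ghrl (1.10), Dao (1.02), Bnip3 (1.01), Cyp2j6 (0.95), Scgn (0.92), Cpe (0.82), Creb3l4 (0.77) and Cyp2j9 (0.73). The search took only named genes whose difference between the days was called by limma, here with adjusted p-values of 0.00188 (Cpe) to 0.0147 (Ghrl). These genes were named for a large change between the days, which favours the pattern. How many of all genes showed it was not counted, so the count has no share to stand against. Some margins were narrow. The highest day 1 array and the lowest control were 6.134 and 6.147 for Scgn, 6.734 and 6.744 for Cpe, and 10.297 and 10.321 for Gcg. Against control neither Gcg on day 1 (-0.39) nor any other of the 10 on that day was called, and the 3 controls and the day 1 and day 4 arrays are the same ones in all of them. On day 4 Gcg, Scgn, Cpe and Creb3l4 were called above control by limma. Gstm6, Ghrl, Dao, Bnip3, Cyp2j6 and Cyp2j9 were not (adjusted p of 0.0705 for Dao to 0.278 for Bnip3). The calls of Gstm6, Ghrl, Cyp2j6 and Cyp2j9 between day 4 and day 1 did not hold without each array in turn.

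Probe sets that carry no gene symbol or several were left out of the gene table. Of 7064 such probe sets 13 were called between the days (0.184%), 8 higher and 5 lower on day 4.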

How the results depend on the processing

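Each of the 70 called genes chosen by the naming rule kept its direction in all settings run; genes named outside the rule were not followed. Over 3185 pairs of a named gene and another setting, 2880 kept direction and side of the threshold, 250 were no longer called, 46 became called and 9 changed sign. Against 263 calls (208 higher, 55 lower), median centring gave 584 (557, 27), array weights 1389 (873, 516; the iteration stopped before convergence), the values as deposited 347, ordinary t statistics 101 (70, 31), the 6 arrays alone 4 (4, 0; 2300 at an unadjusted p under 0.05) and normalization without day 1 replicate 2, added after seeing the data, 162 (115, 47). With the replicate number as a block 473 genes were called (373, 100), 261 of them among the 263. Same-numbered day 1 and day 4 arrays correlated at -0.03, -0.131 and 0.149, so the numbers were not taken as pairs. Over all 30 same-numbered pairs of arrays the correlations ran from -0.203 to 0.503, and 19 were over 0.1. Whether the numbers mark a shared batch is not stated, and any such effect stays in the spread of the main fit. The block gave 8 calls in place of 4 in the goblet list and 12 in place of 9 in the phase II list, and 8 falls in place of 5 among M cell markers. Leaving out 1 array gave 58 to 507 calls, 43 to 372 higher and 15 to 135 lower. The 9 changes of sign were in uncalled genes: Nr1h4 with array weights (-0.10), Nlrc5 with the mean of its probe sets (0.052) or the most variable one (0.245), Ang4 (-0.041 to 0.375 with 1 array left out, -0.042 renormalized), Epb42 (-0.096 to 0.037) and Slc4a1 (-0.305 to 0.024, 0.024 renormalized). The cause was not tested. Genes near background, such as Rgs13 and Gp2 on day 1, may rise by more than the arrays show.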
